A study of Homo sapiens with 16 samples.

Results

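The binding of p53 was mapped by chromatin immunoprecipitation and sequencing (ChIP-seq) in MCF10A, a line of human breast epithelial cells that forms no tumours, and in MCF10A cells given HRAS with the activating G12V change by viral transduction and drug selection, called G12V here. Cells of both types were treated with Nutlin, a drug that blocks the degradation of p53, before fixation. The peaks of the 4 p53 lists, from 2 replicates of each cell type, were merged into 2980 sites wherever they overlapped by at least 1 bp. The sites described here are those with a peak in 1 or both G12V lists, with no peak in either MCF10A list, and with no overlap with a promoter, a stretch from 1000 bp before to 500 bp past the transcription start site (TSS) of any protein-coding gene. They numbered 1063 of the 2769 distal p53 sites (38.4%) and are called G12V-only distal sites. They were chosen by these peak calls, so their presence in G12V lists and absence from MCF10A lists is a description and was not tested. The series has 16 samples, of which 8 are inputs and 4 are ChIP samples for CTCF. MCF10A controls were the parental line, and whether the G12V cells were a clone or a pool is not given in the sources used here.

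p53 is a transcription factor that is stabilised under stress and binds DNA as a tetramer, at a motif of 2 adjacent 10-base half-sites, each built around a conserved C and G. Much of its binding lies far from promoters, in enhancers, where it meets other factors. RAS signalling through the MAP kinase cascade raises and activates the FOS and JUN proteins, which form the dimeric factor AP-1 and bind the letters TGACTCA or TGAGTCA in enhancers. CTCF, a zinc-finger protein, occupies insulators and domain borders, where it holds chromatin loops.

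Most of the G12V-only distal sites rested on 1 library. G12V replicate 2 alone had a peak at 1024 of them, both replicates had one at 35, and replicate 1 alone at 4. The p53 lists held 1718 and 885 peaks in MCF10A and 477 and 2619 in G12V, at recovered depths of 21.4 and 20.1 M and of 9.26 and 33.2 M reads (1 M is 1e6 reads). Only in the G12V replicate 1 list do the peak names contain "old". Of the 2420 distal sites with a G12V peak, 2416 had one in replicate 2. Without G12V replicate 2 only 40 G12V-only distal sites remained, and without MCF10A replicate 1 there were 1685, so their number depends on these libraries. Absence from a list means that no peak was detectable at that depth, not that p53 was absent there.

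The DNA under the peaks is shown for sites that stand for the main kinds, in hg19 coordinates and on the plus strand. Capitals mark a p53 motif of 2 adjacent half-sites, with every core C and G kept and at most 3 mismatches elsewhere, or the AP-1 letters. Each site carries the name of the protein-coding gene with the nearest TSS, which can be distant or differ from the gene that holds the site. The sites named KCND2, CBLL1, C10orf88 and PEBP4 lie in introns of TSPAN12, SLC26A3, PSTK and RHOBTB2. Those named ECI2 and NTRK2 lie 248401 and 179931 bp from the TSS. ARID3A (chr19:933552-933651) and SLC12A7 (chr5:1073613-1073712) were called in both G12V replicates and carry a p53 motif alone. SYT16 (chr14:62431867-62431974) and TKT (chr3:53304040-53304153) were called in both and carry both motifs. INPP4A (chr2:99052282-99052381) and EDN2 (chr1:41948049-41948148) were among the strongest sites of replicate 2 alone, and LGR6 (chr1:202206392-202206491) overlapped a CTCF peak.
ARID3A: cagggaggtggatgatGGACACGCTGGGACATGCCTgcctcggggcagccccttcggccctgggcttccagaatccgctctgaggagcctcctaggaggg
SLC12A7: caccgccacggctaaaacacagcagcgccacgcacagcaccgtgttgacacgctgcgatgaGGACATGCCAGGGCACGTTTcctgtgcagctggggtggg
SYT16: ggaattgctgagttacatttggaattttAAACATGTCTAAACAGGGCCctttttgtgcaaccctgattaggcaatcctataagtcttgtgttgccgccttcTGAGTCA
TKT: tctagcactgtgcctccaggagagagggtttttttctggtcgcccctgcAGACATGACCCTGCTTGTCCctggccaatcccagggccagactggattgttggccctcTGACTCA
INPP4A: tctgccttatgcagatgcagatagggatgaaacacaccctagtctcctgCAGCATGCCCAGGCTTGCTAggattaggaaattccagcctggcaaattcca
EDN2: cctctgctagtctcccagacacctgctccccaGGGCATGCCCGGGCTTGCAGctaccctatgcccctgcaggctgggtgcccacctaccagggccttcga
LGR6: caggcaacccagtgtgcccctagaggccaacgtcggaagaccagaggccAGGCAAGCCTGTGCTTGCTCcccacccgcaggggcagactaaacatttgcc

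A further set lacks the p53 motif or is unusual in sequence. MED24 (chr17:38177763-38177867), BHLHE40 (chr3:5036753-5036852) and RTN1 (chr14:60154508-60154607) carry AP-1 letters without a p53 motif. ITGA3 (chr17:48139985-48140084) is the strongest of 3 neighbouring sites with neither motif, and TAB3 (chrX:30817006-30817105) is the strongest of 7 neighbouring sites in DNA rich in the word CCTTG. LTBP1 (chr2:33091943-33092042), ASIP (chr20:32815932-32816031) and CBLL1 (chr7:107410625-107410724) were called in G12V replicate 1 alone and consist mostly of T.
MED24: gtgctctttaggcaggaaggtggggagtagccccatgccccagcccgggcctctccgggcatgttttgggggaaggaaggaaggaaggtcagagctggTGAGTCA
BHLHE40: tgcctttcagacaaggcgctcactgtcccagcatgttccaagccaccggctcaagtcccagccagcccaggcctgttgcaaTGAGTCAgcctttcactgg
RTN1: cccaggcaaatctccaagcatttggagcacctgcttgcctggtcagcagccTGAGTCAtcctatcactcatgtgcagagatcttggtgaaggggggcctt
ITGA3: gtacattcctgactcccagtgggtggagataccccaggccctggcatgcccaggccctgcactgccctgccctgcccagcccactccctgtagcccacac
TAB3: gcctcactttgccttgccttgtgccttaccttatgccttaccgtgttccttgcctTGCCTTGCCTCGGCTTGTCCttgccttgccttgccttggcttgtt
LTBP1: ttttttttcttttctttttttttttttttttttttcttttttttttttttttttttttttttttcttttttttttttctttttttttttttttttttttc
ASIP: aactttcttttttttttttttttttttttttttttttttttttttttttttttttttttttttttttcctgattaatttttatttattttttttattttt
CBLL1: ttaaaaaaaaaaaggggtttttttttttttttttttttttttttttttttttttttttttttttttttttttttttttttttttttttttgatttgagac

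The 35 sites called in both G12V replicates had higher folds in replicate 2 than the sites of that library alone, while in replicate 1 the 4 sites of that library alone had the higher folds. The fold enrichment that the peak caller gives is the ratio of summit reads plus 1 to local background plus 1. In replicate 2 the reads were first scaled by 0.721. The folds of the 35 sites ran from 3.15 to 12.8 with a median of 6.64 in replicate 1, and from 4.84 to 37.1 with a median of 13.3 in replicate 2. From pooled cells, fewer bound cells and less binding per cell cannot be told apart. The summits of the 35 sites held 10 to 50 reads in replicate 1 and 23 to 161 in replicate 2. Both maxima lay at sites with high local background. EGFLAM had the 50 reads, on a background of 15.18 (genome-wide rate 0.957). GHR had the 161 reads, on a background of 14.04 (genome-wide rate 1.596). In replicate 2, local background exceeded 2 times the genome-wide rate at 8 of the 35 (22.86%). The share was 13.77% at the sites of that library alone. A p53 motif lay within 75 bp of the summit at 30 of the 35 (85.7%, exact 95% binomial interval 69.7 to 95.2%), and AP-1 letters lay at 5 of them, each beside a p53 motif.

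The site with the smallest summed rank over both lists lay 12075 bp upstream of ACTBL2, an actin-like gene, outside any protein-coding gene. Its fold was 10.6 in replicate 1, on 23 reads, and 37.1 in replicate 2, on 152 reads, where it ranked 51st of 2619 peaks. An intronic site 1093 bp downstream of the TSS of ARID3A, a DNA-binding protein with an ARID domain, had folds of 10.1 and 23.8. SLC12A7, a potassium-chloride cotransporter, had an intronic site with the highest replicate 1 fold of the 35, at 12.8, and a replicate 2 fold of 16.5. The TKT site lay 14052 bp upstream of this transketolase gene of the pentose phosphate pathway, with folds of 7.81 and 24.5. These 4 sites had more reads in replicate 2 than in replicate 1, as did the rest of the leading 10.

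The other 6 of the 10 with the smallest summed ranks had folds in replicate 1 between 6.13 and 9.71 and in replicate 2 between 17.5 and 24.6. They were SYT16, of the synaptotagmin family, RGS20, a regulator of G-protein signalling, ECI2, an enzyme of fatty acid oxidation, FXYD3, a regulator of the sodium pump, DLG5, a scaffold protein, and ZCCHC10. All 10 held a p53 motif, with 1 mismatch at ZCCHC10, 2 at ARID3A, SYT16, SLC12A7, ECI2 and FXYD3, and 3 at ACTBL2, RGS20, TKT and DLG5. Only THNSL2 and LRRC4C of the 35 held a motif without mismatch. Their folds were 6.64 and 7.67 in replicate 1 and 10.7 and 9.55 in replicate 2, and these 2 were chosen after their motifs were seen.

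**Figure D1:**
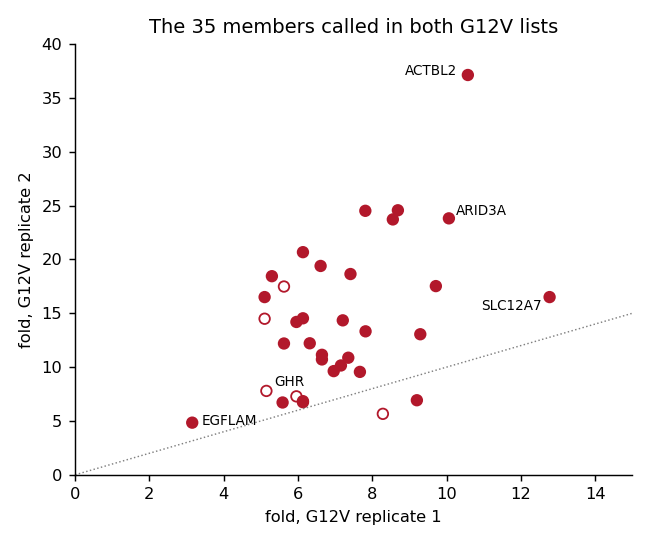
Fold over local background of the 35 G12V-only distal sites called in both G12V lists, with replicate 1 on the x axis and replicate 2 on the y axis, both linear. Filled points hold a p53 motif (30 of 35), open points do not, and the dotted line marks equal fold. Most points lie above the line, up to ACTBL2 at 10.6 and 37.1.

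The 1024 sites of replicate 2 alone were weaker. Their median fold was 6.498 (quartiles 5.38 and 8.08) on a median of 27 reads, and their median rank in the list was 1790 of 2619. For comparison, the 1058 distal sites shared with 1 MCF10A list, or with both but not with all 4 lists, had a median fold of 9.40, and the 299 distal sites in all 4 lists had one of 23.9 in the same library. Since the rule keeps sites that were called in no MCF10A list, these folds are a description and were not tested. Local background exceeded 2 times the genome-wide rate at 149 of the G12V-only distal sites (14.1% of the 1059 with a replicate 2 peak) and at 16.7% of the other distal sites called in that library.

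The strongest of them had folds well inside the range of shared sites. INPP4A, a phosphoinositide phosphatase, had a site 8985 bp upstream with a fold of 36.5 on 130 reads. TNFAIP8L1 had one at 34.6 on 123 reads, and ASAP2, a GTPase-activating protein for ARF, an intronic one at 30.0 on 130 reads. Next came MED24, a subunit of the Mediator complex, at 24.01, and BHLHE40, a basic helix-loop-helix repressor, at 22.8. The remaining 5 of the 10 highest folds, NTRK2 (the neurotrophin receptor TrkB), EDN2 (endothelin 2), RBMS1 (an RNA-binding protein), C10orf88 and COMMD1, lay between 18 and 22.5. Of these 10, all but MED24 and BHLHE40 held a p53 motif. MED24, BHLHE40, NTRK2 and RBMS1 held AP-1 letters.

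**Figure D2:**
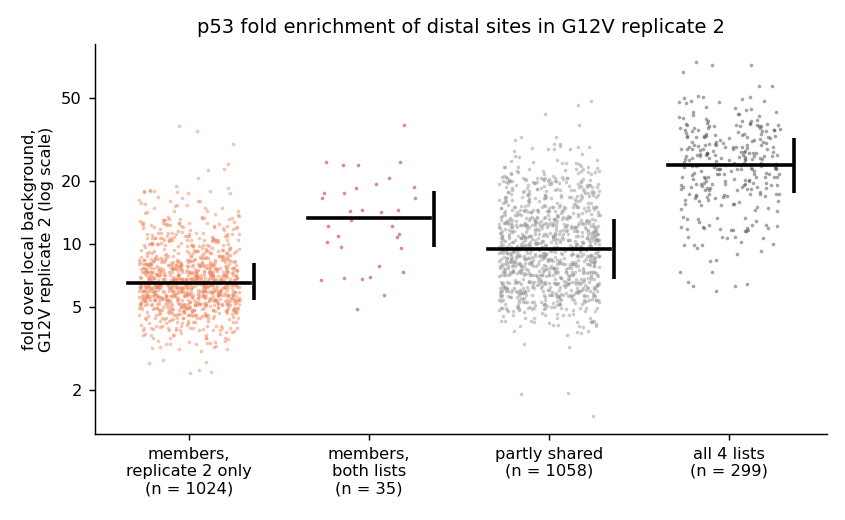
Fold over local background in G12V replicate 2 (y axis, log scale) of distal p53 sites, by class on the x axis. Points are sites, horizontal bars medians and vertical bars the quartiles. The medians were 6.498 for the 1024 sites of G12V replicate 2 alone, 13.3 for the 35 sites of both G12V lists, 9.40 for partly shared sites and 23.9 for sites in all 4 lists.

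At the 299 distal sites in all 4 lists, the median fold was lower in the MCF10A lists, at 18.6 and 11.2, than in G12V replicate 2, at 23.9. The medians over whole lists were 8.68 and 8.48 in MCF10A and 8.18 in that library. At these 299 sites the median ratio of the fold in MCF10A to that in G12V replicate 2 was 0.760 for MCF10A replicate 1 and 0.479 for replicate 2, and it was 0.436 for G12V replicate 1. The upper quartile of the ratio for MCF10A replicate 1 was 1.03, so some sites had the higher fold there. The 1 added in the fold lowers it more in a shallower library, so these ratios also carry depth. Scaled by these ratios, the folds of 572 of the 1059 sites called in replicate 2 (54.0%) would reach the 5th percentile of the distal folds in MCF10A replicate 1, and 160 (15.1%) would do so in MCF10A replicate 2. These 160 would reach it in both. They held a p53 motif in 67.5% of cases and AP-1 letters in 12.5%, and 25 of them were among the 35 called in both G12V lists. The 899 others held a p53 motif in 56.0% and AP-1 letters in 9.01%. The difference between these 2 groups was not tested.

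The weakest member by −log10 q, at 1.31, lay 144666 bp upstream of C14orf180 with 18 reads at its summit and a fold of 3.496. At the promoter limit, the nearest site inside the rule lay 10 bp from a promoter, in an intron of ZMIZ2, with folds of 7.15 and 10.2 in G12V replicates 1 and 2. The nearest site outside it, at MOB3A, overlapped a promoter by 18 bp and had folds of 7.56 and 12.5. The rule left out 131 such promoter sites of the 1194 sites seen only in G12V.

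The 4 sites of G12V replicate 1 alone held long runs of a single base. They lay near LTBP1, ASIP, CBLL1 and CSMD1, with folds of 19.4, 14.3, 12.3 and 11.8 on 37, 27, 23 and 22 reads. The longest run of 1 base in their 150-bp windows was 28, 60, 73 and 58 bases. Such a run of at least 20 bases was found at 4 of these 4 sites and at 6 of the 1059 sites called in replicate 2 (0.567%). None of the 4 held a p53 motif or AP-1 letters. They are 4 of the 39 G12V-only distal sites of that library.

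The p53 motif was less common at the G12V-only distal sites than at sites that the same library shared with MCF10A. It was found at 611 of the 1063 (57.5%, interval 54.4 to 60.5%). Among the 1059 called in G12V replicate 2 it was found at 57.7%, against 83.9% of the 1357 distal sites that were also called in MCF10A. With sites compared within 5 bins of equal size by fold in that library, the common odds ratio was 0.335 (95% interval 0.270 to 0.415, exact conditional test, two-sided, adjusted p = 8.85e-25 over 7 tests). By definition the shared sites had a further peak in an MCF10A list, while 1024 of the G12V-only sites rested on G12V replicate 2 alone. Bins of fold do not match this. In the tests against shared sites, also those for AP-1 and CTCF below, cell type and replication of the call cannot be told apart. Windows 2000 bp to either side of the G12V-only sites held the motif in 0.894%, and those beside the other distal sites in 0.410%.

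The gap was found in every bin. The motif share of the G12V-only sites was 48.4% in the lowest bin of fold, 61.3%, 59.5% and 65.7% in the middle bins and 71.4% in the highest, and that of the shared sites ran from 78.6 to 89.3%. Within the lowest bin the median folds were 4.94 and 5.11, and within the highest 17.9 and 21.7, so the bins did not match fold fully. At the 35 sites called in both G12V lists the motif share was 85.7%, against 89.0% of 390 shared sites in both lists, an odds ratio of 0.926 (95% interval 0.315 to 3.35, exact test, adjusted p = 0.926). That interval is wide. With the 4 lists held to equal length, the odds ratio was 0.538, from 138 G12V-only against 292 shared sites (exact test, adjusted p = 0.0904).

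The motifs at the G12V-only sites were much like those at the MCF10A-only sites in their closeness to the consensus. A motif without mismatch was found at 49 of the 1063 sites (4.61%) and 1 with a single mismatch at 106 (9.97%), against 5.44% and 13.2% of the 349 distal MCF10A-only sites and 27.1% and 36.1% of the 299 distal sites in all 4 lists. Of the sites that held a motif, 25.4% of the G12V-only, 26.3% of the MCF10A-only and 69.2% of the all-list sites held one with at most 1 mismatch. These shares are a description without a test. Motifs with 2 and 3 mismatches were found at 264 and 192 sites. A single half-site without mismatch was present at 44.7% of the G12V-only sites, 45.0% of the MCF10A-only sites, 63.3% of the partly shared sites and 82.3% of those in all 4 lists. Where no p53 motif was found, such a half-site was still present at 166 of 452 sites (36.7%).

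**Figure D3:**
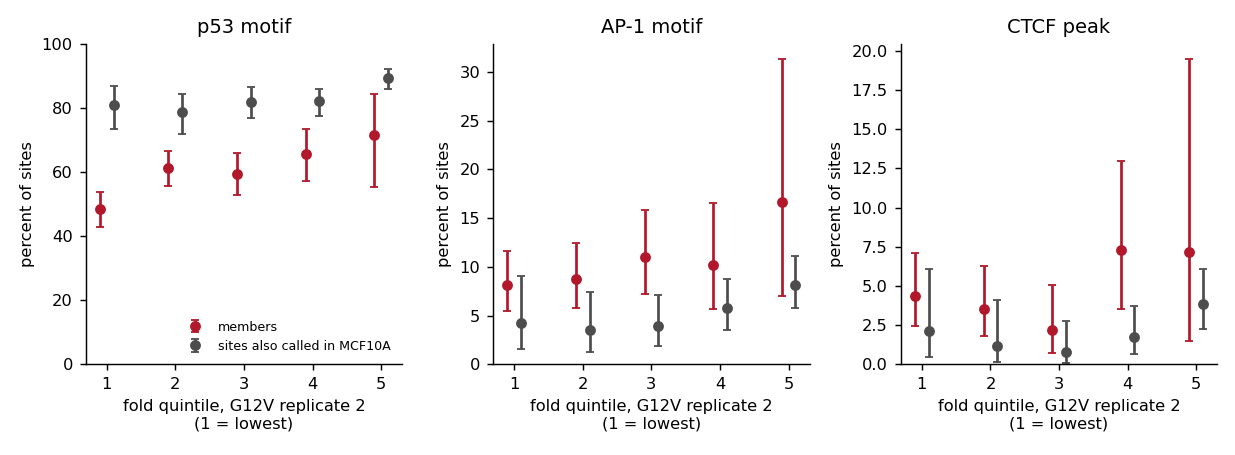
Share of distal sites (y axis, percent) with a p53 motif, an AP-1 motif or a CTCF peak, by quintile of fold in G12V replicate 2 (x axis). Red points are G12V-only distal sites, grey points sites also called in MCF10A, and bars exact 95% binomial intervals. The red p53 motif shares, 48.4 to 71.4%, lie below the grey ones in each quintile, and the red AP-1 shares, 8.16 to 16.7%, lie above.

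AP-1 letters were more common at the G12V-only distal sites. They were found at 101 of the 1063 (9.501%, interval 7.81 to 11.4%), against 3.10% of the windows beside them. Among the sites of G12V replicate 2 the shares were 9.54% for G12V-only and 5.75% for shared sites, with a common odds ratio of 2.32 within bins of fold (95% interval 1.595 to 3.39, exact conditional test, two-sided, adjusted p = 1.03e-05). The odds ratio lay above 1 with each library left out, from 1.799 to 3.84. Without G12V replicate 2 it no longer passed the test, at 1.799 (exact test, adjusted p = 0.435, 40 sites). With 1 mismatch allowed in the AP-1 letters after the leading TGA it was 1.27, from shares of 25.4% and 23.3% (exact test, adjusted p = 0.0342).

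Distal sites of the opposite kind, called in MCF10A and not in G12V, numbered 349. They held AP-1 letters at 7 sites (2.01%, interval 0.810 to 4.09%), against 2.58% of the windows beside them. The difference from the G12V-only sites was 7.496 percentage points (Fisher's exact test, two-sided, adjusted p = 2.15e-06). Without MCF10A replicate 1 it was 5.69 points (adjusted p, exact test, of 0.0813), and without G12V replicate 2 it was 7.95 points (adjusted p = 0.0901). The p53 motif was found at 70.8% of the MCF10A-only sites, 13.3 points above the G12V-only sites (Fisher's exact test, adjusted p = 1.63e-05), and without MCF10A replicate 1 this gap was 3.43 points (adjusted p = 0.596). The 2 classes were not matched for depth or strength. Median summit reads of the MCF10A-only sites were 16 and 13 in MCF10A replicates 1 and 2. Those of the G12V-only sites were 27 in G12V replicate 2. In these comparisons, also that for CTCF below, cell type, depth and strength cannot be told apart.

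Compared over libraries instead of sites, the AP-1 share of distal p53 peaks was 5.47% and 3.47% in the MCF10A replicates and 7.62% and 7.20% in the G12V replicates. Both G12V libraries were above both MCF10A libraries. The means were 4.47% ± 1.42 and 7.41% ± 0.297 (SD, n = 2), a difference of 2.94 points (exact permutation test, two-sided, p = 0.333, the smallest that 2 against 2 can give). The tests over sites, above and below, treat sites as the sampled units and carry no error between cultures.

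**Figure D4:**
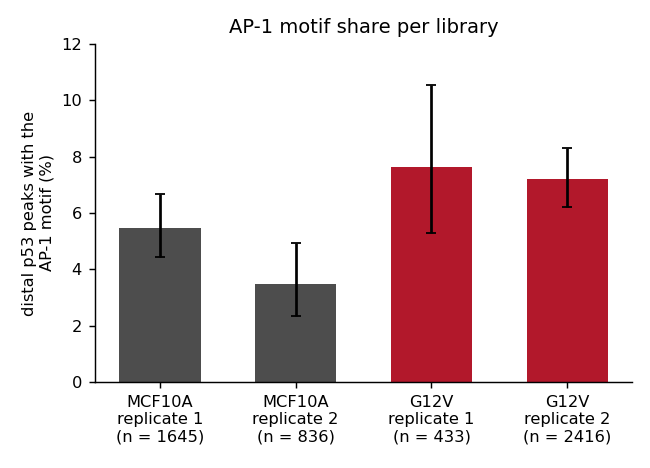
Share of distal p53 peaks with the AP-1 letters within 75 bp of the summit (y axis, percent), for each of the 4 p53 libraries (x axis). Bars are shares and error bars exact 95% binomial intervals, which cover counting error only. The G12V libraries stand at 7.62% and 7.20%, the MCF10A ones at 5.47% and 3.47%.

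Among the G12V-only distal sites, AP-1 letters were found more often where the p53 motif was missing. They were present at 60 of 452 sites without the motif (13.3%, interval 10.3 to 16.7%) and at 41 of 611 with it (6.71%, interval 4.86 to 8.99%), a difference of 6.56 points (Fisher's exact test, two-sided, adjusted p = 0.000435). At the 35 sites of both lists the order was the opposite, with 5 of 30 against 0 of 5, a difference of −16.7 points (adjusted p, exact test, of 1). Without G12V replicate 2 the difference was −11.5 points (adjusted p, exact test, of 0.435). Neither motif was found at 392 G12V-only sites (36.9%). At the 1706 other distal sites, AP-1 letters were also more frequent without the p53 motif, which was not tested. They lay at 85 of these sites, 62 among the 1385 with the motif and the rest among the 321 without. The sites in all 4 lists and the partly shared sites had the same order, and the 349 MCF10A-only sites did not. At these 349, 5 of the 7 sites with AP-1 letters were among the 247 with the motif, the rest among the 102 without.

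The AP-1 sites without a p53 motif were about as strong as the rest. Their median fold in replicate 2 was 6.86, beside 6.78 for sites with the p53 motif alone, 7.10 for those with both and 6.21 for those with neither. The 5 strongest lay near MED24 at a fold of 24.01, BHLHE40 at 22.8, KCND2 (a potassium channel) at 17.9, PSG5 (a pregnancy-specific glycoprotein) at 12.6 and RTN1 (a reticulon of the endoplasmic reticulum) at 11.7. The MED24 site, 1600 bp downstream of a TSS in an intron, also held a single p53 half-site without mismatch. The 5 strongest with both motifs lay near TKT, SYT16, NTRK2, RBMS1 and PEX5L, with folds from 13.1 to 24.5.

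The 2 motifs differed in where they lay. The centre of the p53 motif was a median of 15 bp from the centre of the window at the G12V-only sites and 12 bp at the other distal sites, and 58.1% and 73.3% of motifs lay within 20 bp. The AP-1 letters were a median of 36.5 bp away, beside 31.5 bp for those in the windows 2000 bp to either side, and 21.8% lay within 20 bp. Among AP-1 sites without a p53 motif the median was 35.5 bp. At RTN1 they lay 4.5 bp from the summit, and at MED24 51.5 bp.

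**Figure D5:**
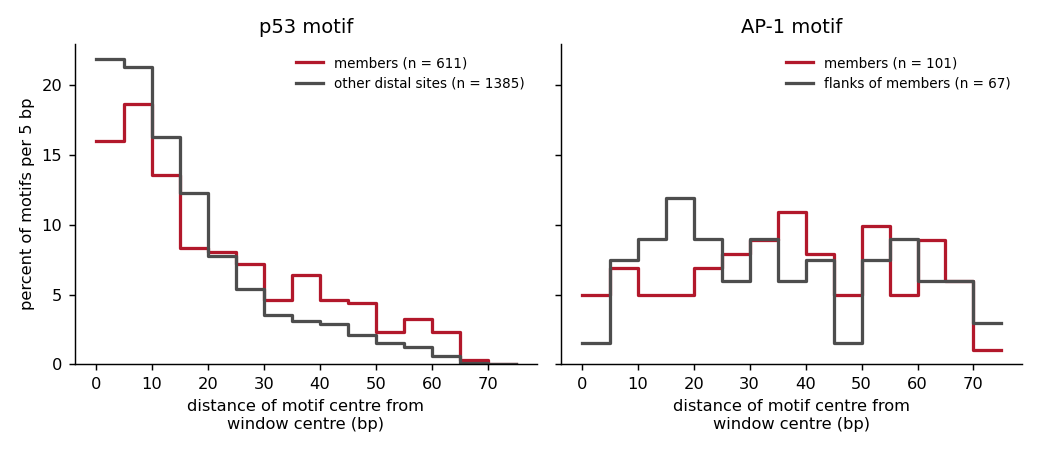
Distance of the motif centre from the window centre (x axis, bp) for p53 motifs (left) and AP-1 letters (right), as percent of motifs per 5 bp (y axis). Red lines are G12V-only distal sites, grey lines other distal sites (left) or the windows beside the G12V-only sites (right). The p53 motifs pile up near the centre, with medians of 15 and 12 bp, while the AP-1 letters are spread over the window, with medians of 36.5 and 31.5 bp.

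Motifs of other factors active in epithelial cells or downstream of RAS were also counted. The TEAD letters GGAATGT were found at 4.33% of the G12V-only distal sites and 4.16% of the other distal sites, beside 2.07% and 2.81% of the windows beside them. The RUNX letters TGTGGTT were found at 2.54% and 2.23%, the E-box CACGTG at 1.98% and 2.17%, and the ETS letters CCGGAAG at 0.941% and 0.645%. The windows beside the G12V-only sites held them in 2.78%, 1.18% and 0.470%. The SP/KLF letters GGGCGGG were found at 3.01% and 1.70%, beside 1.41% and 1.11% of the windows beside them. The CRE letters TGACGTCA and the C/EBP letters TTGCGCAA were found at 3 G12V-only sites each and at 0 of the 1706 others, and in 0.0941% and 0% of the windows beside the G12V-only sites. Each was searched on both strands, and these shares are a description without a test. Median GC content was 49.3% at G12V-only and 47.3% at other distal sites.

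A CTCF peak overlapped 44 of the 1063 G12V-only distal sites (4.14%, interval 3.02 to 5.52%). Moved by 10000 bp to either side, the sites overlapped CTCF peaks in 0.659% of cases. In G12V replicate 2 the share was 4.16% for G12V-only and 2.21% for shared sites, with a common odds ratio of 2.87 (95% interval 1.58 to 5.32, exact conditional test, two-sided, adjusted p = 0.000364). Without G12V replicate 2 it was 1.35 (exact test, adjusted p = 0.659). Of the 349 MCF10A-only sites, 2 overlapped a CTCF peak (0.573%), 3.57 points fewer (Fisher's exact test, two-sided, adjusted p = 0.000435), or 1.32 points without MCF10A replicate 1 (adjusted p = 0.768) and 4.09 without G12V replicate 2 (adjusted p = 0.108).

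Most of these CTCF peaks were present in both cell types. A CTCF list of MCF10A held a peak at 38 of the 44 sites and a G12V list at 43, all 4 CTCF lists at 18, and G12V lists alone at 6. Of the 44, 25 held neither the p53 motif nor AP-1 letters, which is 6.44% of the 388 such sites called in replicate 2. The strongest lay near TNFAIP8L1 at a fold of 34.6, with a peak in 1 CTCF list, LGR6 (a receptor for R-spondins) at 18.4, with 3, and RUVBL1 (an AAA ATPase) at 17.5, with 4. Sites near TENT4A, a poly(A) polymerase, and PEBP4 followed at 13.3 and 13.04.

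Relative to genes, the G12V-only distal sites lay much like the other distal sites, while their share of distal sites differed between chromosomes. Only protein-coding genes were used for the gene classes, so intergenic means outside them and can include noncoding genes. Summits were intergenic at 552 (51.9%) and intronic at 486 (45.7%), against 53.1% and 44.4%, and lay in a UTR at 19, another exon at 5 and a coding exon at 1. The median distance to the nearest TSS was 33903 bp (quartiles 10818 and 116260 bp), and 40675 bp at the other distal sites. Among the autosomes, their share of the distal sites was highest on chromosomes 19 (58.3%), 8 (49.0%) and 11 (47.7%) and lowest on chromosomes 13 (21.7%) and 6 (26.9%), beside 38.4% overall. These shares were not tested. Another distal site that was called in MCF10A lay within 100000 bp of 179 of them (16.8%).

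Only 3 groups of at least 3 G12V-only distal sites within 50000 bp of their neighbours were found, with 13 sites in all. The largest held 7 sites over 9.47 kb of chromosome X, 58700 to 67888 bp from TAB3, a partner of the kinase TAK1. Their folds in replicate 2 ran from 4.83 to 8.17 on 16 to 28 reads, none was called in replicate 1, and local background was at the genome-wide rate at the median site. Their windows held 13 to 17 copies of a half-site core (C, then 2 bases of A or T, then G), with a median of 15, against a median of 4 over all G12V-only sites. The word CCTTG, counted on both strands, occurred 10 to 13 times in each, against a median of 0 over all G12V-only sites. A p53 motif was found at 3 of the 7.

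ITGA3, the integrin alpha 3 chain of a laminin receptor, had 3 sites over 3.30 kb within the gene, with folds of 5.12, 17.9 and 4.83 on 27, 98 and 27 reads. None of the 3 held a p53 motif, AP-1 letters or a half-site without mismatch. PLEC, which encodes the cytoskeletal linker plectin, had 3 intronic sites with folds from 5.53 to 7.46, of which 1 held both motifs. Local background at the median site was 1.88 times the genome-wide rate in the ITGA3 group and 1.69 times in the PLEC group. All 13 sites were called in replicate 2 alone.

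Of all 19807 protein-coding genes, 2123 (10.7%) had a G12V-only distal site within 100000 bp of a TSS. Among 32 known p53 target genes there were 6, SESN2, PPM1D, PLK3, POLH, TNFRSF10B and TNFRSF10C, and 9 (28.1%) had a distal site that was called in MCF10A, as did 13.5% of all genes. SESN2, a stress-induced regulator of mTORC1, had its site 776 bp from a TSS, at a fold of 9.71 and without a p53 motif. PPM1D, the phosphatase WIP1 that turns p53 off, had its nearest site 70182 bp away, at a fold of 7.43 with a motif of 1 mismatch. The TRAIL receptor genes TNFRSF10B and TNFRSF10C share 1 site, at a fold of 13.04.

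Among 21 feedback genes of the RAS and MAP kinase cascade there were 4. The MAP kinase phosphatases DUSP1, DUSP5 and DUSP7 had sites 98023, 98989 and 50577 bp away at folds of 7.41, 4.48 and 8.03, and NF1, a RAS GTPase-activating protein, had one 22600 bp away at 7.89. Of 32 genes of epithelial-mesenchymal transition and migration there were 4, among them ITGA3, ITGB4 (the integrin beta 4 chain) and PLAUR (the urokinase receptor). Of 12 EGF receptor and ligand genes there were ERBB2 and NRG1, with sites 32770 and 13549 bp away at folds of 10.0 and 7.89. Of 19 genes of the G1/S transition there were CDK2 and E2F3, of 16 AP-1 family genes FOSL2, at 13704 bp and a fold of 7.82, and of 14 basal keratin and adhesion genes PKP1, a plakophilin.

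The list shares, from 6.25% for the AP-1 family to 19.05% for the RAS feedback genes, are counts of 1 to 6 genes and are given as a description beside the 10.7% of all genes. A distal site called in MCF10A lay within the same distance of 50% of the EGF genes and 31.25% of the AP-1 family genes. The shares were 23.8% for RAS feedback, 15.6% for transition and migration, 21.05% for G1/S and 7.14% for basal genes, beside 13.5% of all genes. The CDK2 and PKP1 sites held AP-1 letters, the FOSL2, E2F3, ERBB2, PLAUR, DUSP5, DUSP7, PPM1D, PLK3 and shared TNFRSF10B and TNFRSF10C sites a p53 motif, and the others neither. All of these sites were called in G12V replicate 2 alone. Of the listed genes with such a site, only SESN2, NF1 and NRG1 also had a distal site called in MCF10A within 100000 bp of a TSS. No expression was measured in these files, so a nearby gene is a name for the place and nothing more.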

How the data were processed

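p53 and CTCF ChIP-seq of MCF10A and G12V cells, 2 replicates each, was analysed from 8 peak lists, and the 8 inputs entered only through the peak caller. The authors aligned single-end reads to hg19 with Bowtie, kept unique alignments and called peaks of each library with MACS2 against input at default settings. The deposited columns used were the score, the fold enrichment (a ratio), the −log10 p and −log10 q and the summit position. The members and the gene lists were chosen with earlier results of these data known.

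Summit reads and depth were solved from each peak's fold and −log10 p with the caller's formulas for a mappable genome of 2.7 Gb, and gave whole reads at 100% of the peaks that could be solved, on a tolerance of 0.05 reads. The library of G12V replicate 2 had been scaled by 0.721 to its input, to 23.9 M reads. Motifs were searched on both strands of a 150-bp window of GRCh37 centred on the strongest summit in a site, and genes came from GENCODE 44 mapped to GRCh37. Tests of shares were Fisher's exact test (two-sided) or the exact conditional test over 5 bins of fold (R 4.3.3), adjusted by the Benjamini-Hochberg method over 7 tests. Intervals are exact (Clopper-Pearson) and cover counting error only. The steps were tested on simulated data. Scripts used Python 3.11.15, pandas 2.3.3, scipy 1.17.1 and pysam 0.24.0.

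Named sites were the 10 of both lists with the smallest summed ranks, the 10 of replicate 2 alone with the highest fold, all of replicate 1 alone, the 5 strongest with AP-1 letters without or with a p53 motif or with a CTCF peak, groups of at least 3, sites at the limits, and listed genes within 100000 bp. Alternatives were a −log10 q of at least 5, overlap of 50% of the shorter peak, lists of equal length, sites of both lists, promoters of 5000 bp, windows of 300 bp, looser or stricter motifs, 10 bins and each library left out. A gene and a sequence covered by these choices are not reported here.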

Additional observations from a re-analysis of the deposited data

How the results depend on the processing

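Of 97 alternative values, 74 kept their direction and their side of the threshold or, for counts, stayed within 1.5 times. The AP-1 comparison over libraries was judged by direction alone, because its permutation p cannot fall under 0.333 in any setting. The number of G12V-only distal sites was 209 with lists of equal length and 35 when both lists of a cell type had to hold the site, and ran from 40 to 1685 with 1 library left out. With lists of equal length, the exact tests gave odds ratios against shared sites of 0.538 for the p53 motif (adjusted p = 0.0904) and 2.76 for CTCF peaks (adjusted p = 0.104), and an AP-1 difference by p53 motif of 6.08 points (adjusted p = 0.240). These no longer passed the test, with fewer sites tested. With sites of both lists, no test passed: the odds ratios against shared sites were 0.926 for the p53 motif, 2.56 for AP-1 and 1.53 for CTCF peaks, the differences from MCF10A-only sites were 2.90 points for the p53 motif (opposite in sign), 12.7 for AP-1 and 5.71 for CTCF peaks, and the AP-1 difference by p53 motif was −16.7 points (opposite in sign). With a p53 motif of at most 1 mismatch, its difference from MCF10A-only sites was −4.04 points (adjusted p, exact test, of 0.0744), and the cause was not tested. With 1 mismatch allowed in the AP-1 letters after the leading TGA, the AP-1 odds ratio against shared sites was 1.27 and the AP-1 difference by p53 motif 13.3 points, and both still passed the test.

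With each library left out, the odds ratios against shared sites ran from 0.249 to 0.464 for the p53 motif, from 1.799 to 3.84 for AP-1 and from 1.35 to 3.52 for CTCF peaks. The differences from MCF10A-only sites ran from −20.8 to −3.43 points for the p53 motif, from 5.69 to 7.95 for AP-1 and from 1.32 to 4.29 for CTCF peaks. The AP-1 difference by p53 motif ran from −11.5 to 6.64 points, and that between libraries from 1.94 to 3.94. The calls that were lost fell without G12V replicate 2 or MCF10A replicate 1. For the test over libraries, a fit with the replicate number as a block was added after seeing the data: the G12V minus MCF10A differences were 2.15 and 3.73 points, with a mean of 2.94 (exact paired permutation test, p = 0.5, the smallest that 2 pairs can give), and nothing states that the numbers pair the samples. No paired analysis was possible for the other tests because they are over sites.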
